A study of Mus musculus with 30 samples.

Results

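The genes described here are 10 interferon-induced GTPases of the mouse: the guanylate-binding proteins Gbp2, Gbp3, Gbp4, Gbp5, Gbp6 and Gbp7, and the immunity-related GTPases Irgm1, Irgm2, Igtp and Iigp1. They were chosen by gene symbol and matched by Ensembl identifier across 3 deposited tables, and they are 10 of the 55401 genes in those tables. RNA came from tumours that wild-type mice grew from 4T1-GFP cells, a fluorescent derivative of a mammary carcinoma line of the mouse. Tumour cells were obtained by sorting, and CD4+ and CD8+ T cells with magnetic beads. Every mouse had been given an antibody 2 times a week over 1 month: either IgG1 as the control (written CTRL; its dose is not given in the sources used here) or C269 at 2.5 mg/kg, which binds extracellular NAMPT. Each of the 3 cell populations (4T1, CD4 and CD8) thus has a CTRL and a C269 group, which makes 6 groups of 5 libraries. All groups share the genotype, the single tumour line and the dosing schedule, and none is free of tumour or of antibody.

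Interferon-gamma, released mainly by T cells and natural killer cells, binds a receptor built from Ifngr1 and Ifngr2, and the signal reaches genes through DNA elements called GAS. It also induces the transcription factor Irf1, and the IRF factors bind elements called ISRE. The GBP and IRG genes are among the strongest targets of this pathway in mice. Their products are GTPases that gather on the vacuoles of intracellular parasites and bacteria and break them open; GBPs are also known for assisting inflammasome activation, and the IRGM proteins (Irgm1, Irgm2 and Igtp, the last also called Irgm3) hold effector IRGs such as Iigp1 inactive on the cell's own membranes. In a tumour their RNA is often read as a trace of interferon exposure, in tumour cells, T cells and myeloid cells alike.

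Gene counts per library ran from 2005579 to 5176494. The T cell fractions carried their defining markers: Cd4, in reads per 1000000 gene counts (CPM), lay between 71.3 and 192 in CD4 CTRL and between 3.08 and 12.2 in CD8 CTRL. Cd8a lay between 357 and 619 CPM in CD8 CTRL and between 6.88 and 19.7 CPM in CD4 CTRL. Cd3e was present in both but higher in CD8 CTRL (363.4 to 456.3 CPM) than in CD4 CTRL (121.8 to 214.1 CPM). The sorted 4T1 CTRL libraries were not separated from CD4 CTRL by the epithelial markers Krt8 (58.2 to 183 CPM against 77.7 to 104 CPM) and Epcam (8.51 to 45.6 CPM against 5.64 to 26.5 CPM), and they held the leukocyte gene Ptprc at 253 to 706 CPM. So "4T1" below names the sorted fraction, which holds RNA of other cells. Libraries 9 and 10, both 4T1 C269, stood apart from the rest: the intestinal mucin gene Muc2 was at 4408 and 5348 CPM there and at most 10.7 CPM in the other 28. The members' fold changes and the list medians for C269 in 4T1 are given with and without them, and other values with them unless stated. Libraries are named by their number in the tables, from 1 to 30: 4T1 (CTRL 1 to 5, C269 6 to 10), then CD4 (11 to 20) and CD8 (21 to 30) in the same way, and lists of 5 values follow that order. The labels do not say whether the 5 libraries of a group stem from 5 animals, so p-values reflect the spread among these libraries only.

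The genes sit in clusters (GRCm38 coordinates). Gbp5 (chr3:142493978-142522344), Gbp7 (chr3:142530342-142550149), Gbp3 (chr3:142560026-142573209) and Gbp2 (chr3:142620602-142638008) form a row on the plus strand of chromosome 3. Gbp4 (chr5:105115767-105139586) and Gbp6 (chr5:105270702-105293698) lie on the minus strand of chromosome 5, Irgm1 (chr11:48861968-48871683) alone on the minus strand of chromosome 11, and Igtp (chr11:58199556-58207591) and Irgm2 (chr11:58199618-58222782) on its plus strand. Iigp1 lies apart from all of them. Igtp lies with 99.2% of its span inside Irgm2 on the same strand, and the annotated exons of the pair share 162 bases (8.0% of those of Igtp). Gbp4 overlaps Gbp8 and Gbp9 in the same way, with 61 and 60 shared exon bases. Gbp6 lies wholly inside the span of Gm43302, a protein-coding gene on the same strand, and shares 1726 exon bases with it (29% of those of Gbp6). How reads in shared or near-identical sequence were assigned is not given in the sources used here, so the values of Igtp, Irgm2, Gbp4 and Gbp6 carry that uncertainty.

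The promoter sequences are shown because the members are grouped by a shared inducer, whose DNA elements can be read directly. RefSeq promoters (GRCm38.p6, 250 bases before to 50 after the annotated start) were held for 7 of the 10 members; Gbp4, Gbp6 and Iigp1 were not among them. ISRE was searched as TTTC, any 2 bases and TTTC, and on the other strand as GAAA, any 2 bases and GAAA. GAS was searched as TTCNNNGAA, which reads the same on both strands, and the motifs may overlap. An ISRE match was present in 7 of 7 members, against 3.44% of all 32851 promoters in the table, and a GAS match in 4 (Gbp5, Gbp7, Irgm2 and Igtp), against 8.3%. Those 4 held both, against 0.454% of all promoters. Members were counted by gene, with a match in any promoter, and the background by single promoter. Gbp3 has 2 promoters, of which 1 held no match. Windows around the matches follow, each 5′ to 3′ in the gene's own direction, with the matches in capitals.
Gbp2: cttttagTTTCACTTTCactgtct
Gbp3: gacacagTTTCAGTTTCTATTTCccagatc
Gbp5: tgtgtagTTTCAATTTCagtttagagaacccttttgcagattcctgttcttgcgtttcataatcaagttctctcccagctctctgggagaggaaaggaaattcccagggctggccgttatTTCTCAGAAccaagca
Gbp7: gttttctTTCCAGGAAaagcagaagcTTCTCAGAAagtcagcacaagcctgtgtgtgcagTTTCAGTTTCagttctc
Irgm1: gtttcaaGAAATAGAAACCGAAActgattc
Irgm2: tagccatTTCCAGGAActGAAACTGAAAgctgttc
Igtp: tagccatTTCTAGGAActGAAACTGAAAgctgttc

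The windows lie at chr3:142620597-142620620 (Gbp2), chr3:142559992-142560021 (Gbp3), chr3:142496762-142496897 (Gbp5) and chr3:142530223-142530299 (Gbp7) on the plus strand. Those of the IRG genes lie at chr11:48871428-48871457 (Irgm1, minus strand), chr11:58214895-58214929 (Irgm2) and chr11:58199504-58199538 (Igtp), the last 2 on the plus strand. In the GENCODE annotation all 30 bases of the Irgm1 window and 19 of the 24 bases of the Gbp2 window fall in an annotated exon, and the other 5 windows in none. Gbp3 and Irgm1 each carry 2 ISRE matches that share bases, and Gbp5 has a further GAS match that begins 245 bases before its start. Gbp3 has a second annotated promoter with no match. The 35 bases shown for Irgm2 and Igtp differ by 1 substitution, T11C (the base of Igtp, its position from the 5′ end of the window, the base of Irgm2), which falls at a free position of the GAS motif. A match of letters is a description and not evidence that a factor bound there.

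**Figure D1:**
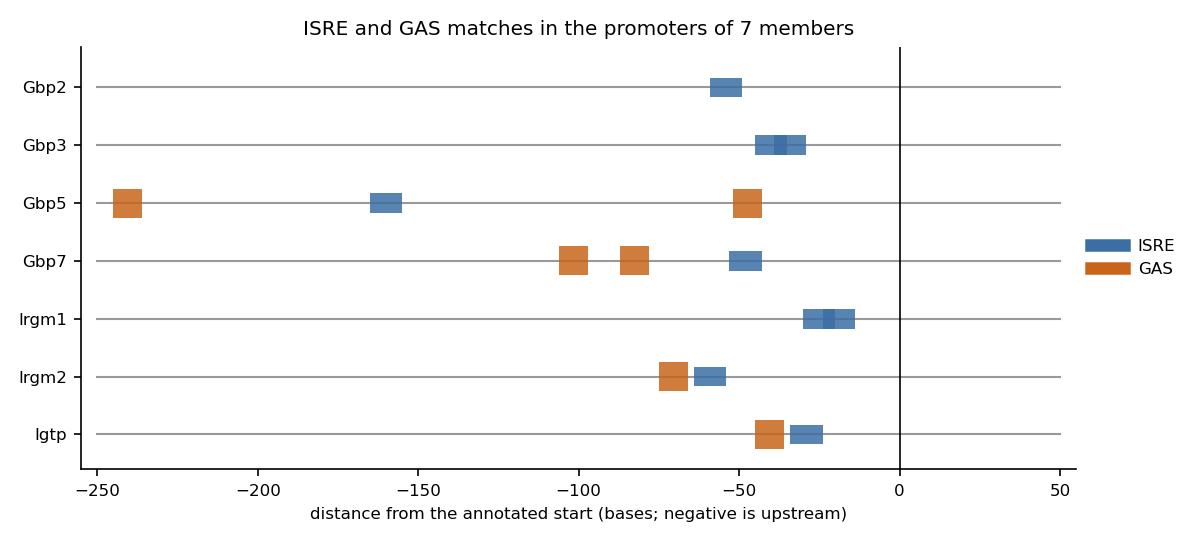
Position of ISRE (blue) and GAS (orange) matches in the promoters of 7 members, in bases from the annotated RefSeq start (x axis, negative is upstream); each grey line is 1 promoter of 300 bases. All 7 hold an ISRE match, and Gbp5, Gbp7, Irgm2 and Igtp also hold GAS matches.

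Members differed widely in level within each control group, compared here as CPM per kilobase of exon. This division assumes reads along the whole transcript, which is not stated in the sources used here, and the order depends on it. In plain CPM in CD4 CTRL, Iigp1 had the highest mean (255.4), then Igtp (231.5), Gbp7 (230.5), Gbp4 (159.3) and Gbp2 (150.4). In CD4 CTRL, Igtp was highest at 114.5 ± 12.1 (SD, n = 5), followed by Gbp2 at 59.8 ± 11.3, Iigp1 at 43.9 ± 11.1 and Gbp7 at 41.1 ± 6.88. Gbp3 (29.8 ± 5.57), Gbp4 (21.3 ± 1.72) and Irgm2 (16.3 ± 3.34) came next, then Irgm1 (8.27 ± 0.921) and Gbp5 (7.55 ± 1.36). The ranges of mean ± SD did not meet for Igtp and Gbp2, for Gbp3 and Gbp4 and for Irgm2 and Irgm1. Those of the other neighbours in this order overlapped. In CD8 CTRL, Igtp again came first at 87.5 ± 14 CPM per kilobase, ahead of Gbp7 at 34.1 ± 5.41 and Gbp2 at 30.5 ± 5.31, and Iigp1 stood at 17.7 ± 4.09. In 4T1 CTRL, Gbp2 (63.1 ± 21.02 CPM per kilobase) and Igtp (57.5 ± 22.7) were level within their SDs.

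Gbp6, a GBP encoded on the same strand as Gbp4, was assigned few reads. Gm43302, with which it shares exon sequence, had 1 read over all 30 libraries, and reads that fit both genes may have been left out of either count. Over 5 libraries each it had 5 reads in 4T1 CTRL, 1 in 4T1 C269, 4 in CD4 CTRL, 2 in CD8 CTRL and 0 in CD4 C269 and CD8 C269. Its highest level was 1.25 CPM, in library 4. It did not pass the filter on low counts in any comparison, so 9 of the 10 members were tested in each filtered fit. No fold is given for Gbp6. In the alternatives without this filter that tested it, Gbp6 was not called.

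**Figure D2:**
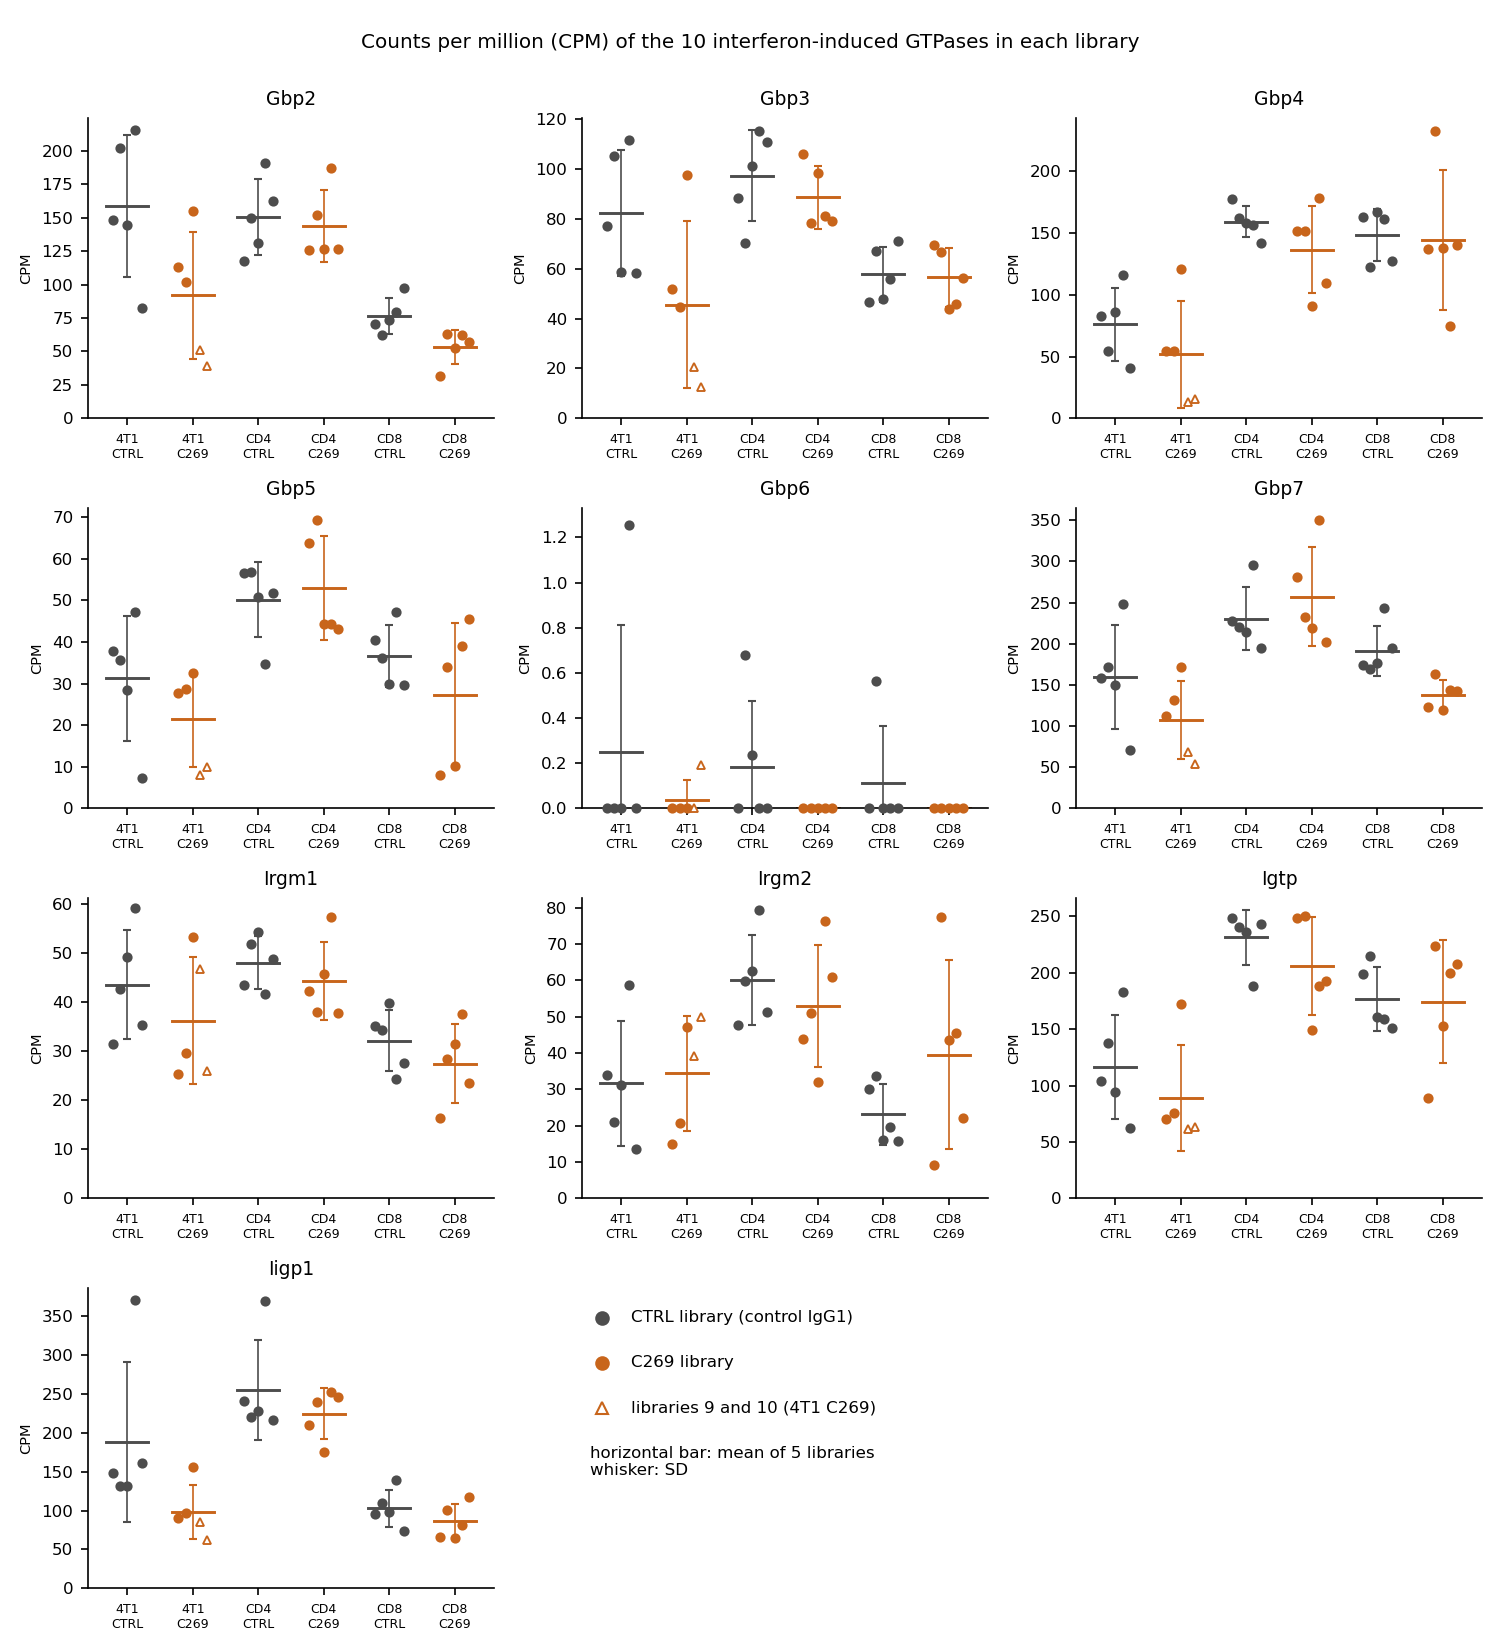
CPM (y axis, a separate scale for each gene) of the 10 members in the 6 groups (x axis); each point is 1 library, the bar is the mean of 5 and the whisker the SD, and open triangles are libraries 9 and 10. Iigp1, Gbp2, Irgm1 and Irgm2 lie lower in all CD8 CTRL libraries than in any CD4 CTRL library, and Gbp6 stays at or below 1.25 CPM.

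The first question was how the GTPases were distributed over the 3 populations in control tumours. Of 9 members tested, 3 were lower in CD8 CTRL (Iigp1, Irgm2 and Gbp2) and 0 higher, where 6.94% of all 14731 genes tested passed, 5.17% as lower and 1.76% as higher (edgeR's quasi-likelihood test in a fit of all 30 libraries, Benjamini-Hochberg adjusted p under 0.05). All 9 differences were negative, with a median of -0.50 on the log2 scale against -0.01 over all genes, a direction also found with RLE factors and DESeq2. In bulk RNA, fewer cells of a type and less RNA per cell cannot be told apart.

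Iigp1, an effector IRG of parasite vacuoles encoded on the plus strand of chromosome 18 (60376027 to 60392634), had the smallest p of the members. Its levels were 240.6, 221, 228, 369.8 and 217 CPM in CD4 CTRL and 95.7, 109.8, 97.9, 139 and 73.7 CPM in CD8 CTRL. Every CD8 CTRL library was below every CD4 CTRL library, and library 14 was the high one among the CD4 CTRL libraries. The difference was -1.22 on the log2 scale (SE 0.24, edgeR adjusted p = 0.002004), and the call held when each of the 10 libraries was left out in turn (adjusted p from 0.003082 to 0.01147).

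Gbp2, a lipid-anchored GBP that coats pathogen vacuoles, was at 118, 149.6, 131, 191 and 163 CPM in CD4 CTRL and at 70.6, 62.0, 73.4, 79.6 and 97.6 CPM in CD8 CTRL. The groups did not overlap, and the difference was -0.88 (SE 0.27, edgeR adjusted p = 0.0439). This call was lost in 8 of 10 fits without 1 library (libraries 12 to 15 and 21 to 24; edgeR adjusted p up to 0.1237, and from 0.00355 over all alternatives). Irgm2, one of the regulatory IRGM proteins, was at 47.6, 59.8, 62.5, 79.3 and 51.2 CPM in CD4 CTRL and at 30.2, 33.7, 16.2, 19.6 and 15.7 CPM in CD8 CTRL. These did not overlap either, with a difference of -1.28 (SE 0.40, edgeR adjusted p = 0.0494). The Irgm2 call was lost in each of the 10 fits that left out 1 library (adjusted p from 0.0529 to 0.1296, and from 0.0127 over all alternatives).

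Irgm1, the regulator that also acts in autophagy, was the fourth member without overlap, at 41.8 to 54.3 CPM in CD4 CTRL and 24.2 to 39.8 CPM in CD8 CTRL, but its difference of -0.50 (SE 0.23) had an edgeR adjusted p of 0.2149. Of all genes tested here, 15.9% had no overlap between the groups, 10.7% as lower and 5.18% as higher. Gbp3 had a difference of -0.66 (SE 0.31, edgeR adjusted p = 0.2368). Of its 15 alternatives it passed in 2, the edgeR fits without libraries 9 and 10 (adjusted p = 0.0338; 8.82% of genes passed) and of the 15 CTRL libraries alone (0.0303; 12.6% of genes), with adjusted p up to 0.3984 in the others. Gbp5 (-0.38, SE 0.42), Igtp (-0.31, SE 0.26), Gbp7 (-0.18, SE 0.25) and Gbp4 (-0.02, SE 0.37) did not pass. For Gbp4, a mean of 159 ± 12.9 CPM in CD4 CTRL stood against 148 ± 21.3 CPM (SD, n = 5) in the CD8 group.

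Markers of other cells differed between the same libraries, with every marker of the types given here detected in both groups. T cell markers differed as well. The 7 T cell markers summed to 1120 to 2679 CPM in CD4 CTRL and to 3070 to 3952 CPM in CD8 CTRL. In CD8 minus CD4, 6 of these 7 were positive and 1 passed (median 0.77). Ptprc lay at 665 to 1356 CPM in CD4 CTRL and at 1636 to 2073 CPM in CD8 CTRL. The 5 epithelial markers summed to 203 to 311 CPM in CD4 CTRL and 35.1 to 100.5 CPM in CD8 CTRL, and the 4 fibroblast markers to 441 to 3981 and 202 to 576 CPM. The 7 markers of macrophages and monocytes, which also express these GTPases, summed to 430 to 1979 CPM in CD4 CTRL and 731 to 1338 CPM in CD8 CTRL. Ly6c2 carried much of the CD8 sum (563 ± 98.6 CPM, against 81.3 ± 8.75 CPM in CD4 CTRL), while 5 of the 7 had negative differences in CD8 minus CD4, with a median of -0.59. Library 14, with the highest Iigp1, had the highest macrophage sum of its group (1979 CPM, against at most 932) and the lowest T cell sum (1120 CPM, against at least 2395). Their part in the result was not tested.

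Between 4T1 and CD4 CTRL, 1 of 9 members was lower in 4T1 (Igtp) and 0 higher, against 5.8% of 14731 genes that passed (2.26% as higher, 3.54% as lower; edgeR). Among those genes 333 were higher and 522 lower (38.95% higher), a split that moved to 518 and 457 (53.1% higher) with RLE size factors and to 60.6% higher with DESeq2, which moved the median of all genes from 0.00 to 0.14. Igtp, an IRGM protein, was at 104, 138, 93.9, 183 and 62.7 CPM in 4T1 CTRL and at 249, 240.5, 236, 188.5 and 243.5 CPM in CD4 CTRL. Even the highest 4T1 CTRL library was below the lowest CD4 CTRL library, and the difference was -0.95 (SE 0.26, edgeR adjusted p = 0.0278). The call was lost in 6 of 10 fits without 1 library (libraries 3, 5, 11, 12, 13 or 15; edgeR adjusted p up to 0.0821, and from 0.007991 over all alternatives).

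Gbp4 was at 83.2, 54.5, 86.2, 116 and 40.5 CPM in 4T1 CTRL and at 178, 162, 158, 156.5 and 142 CPM in CD4 CTRL. Here too the groups did not overlap, which held for 9.73% of all genes tested (7% as lower, 2.74% as higher). The difference of -0.99 (SE 0.37) had an edgeR adjusted p of 0.107, and of 15 alternatives it passed in 2, without libraries 9 and 10 (0.0117; 9.89% of genes passed) and in the fit of the 15 CTRL libraries (0.008179; 12.7%), with up to 0.2556 in the others. The other members gave -0.85 (Irgm2), -0.62 (Gbp5), -0.46 (Gbp7), -0.37 (Iigp1), -0.18 (Gbp3), -0.08 (Irgm1) and 0.14 (Gbp2), of which none passed. With RLE factors or DESeq2 the value of Irgm1 was 0.02, on the other side of 0. Of its 15 alternatives, Iigp1 passed in the one that left out library 4 (edgeR adjusted p = 0.0489, with up to 0.6122 in the others), and library 4 held 372 CPM against 131 to 161 CPM in the other 4 libraries.

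Against CD8 CTRL, the 4T1 fraction had more Gbp2 and Iigp1 and less Gbp4. These 3 of 9 members passed, 2 as higher and 1 as lower, in a comparison where 31.9% of all genes passed (17.8% as higher, 14.1% as lower; edgeR). The share of members is close to that background. Gbp2 was at 148, 202, 144.5, 216 and 82.8 CPM in 4T1 CTRL, and only the last of these lay within the range of CD8 CTRL. Its difference was 1.02 (SE 0.27, edgeR adjusted p = 0.00485), and it passed in each of the 10 fits without 1 library. Iigp1 differed by 0.84 (SE 0.24, edgeR adjusted p = 0.008661) and lost its call in 1 of 15 alternatives, the one without library 4 (0.0785, against 0.001362 at the lowest). Gbp4 differed by -0.97 (SE 0.37, edgeR adjusted p = 0.0475) with no overlap between the groups (25.4% of all genes; 12.8% as lower, 12.7% as higher). It kept its call in 3 of 15 alternatives. It lost it with RLE factors (0.0645), which moved the median of all genes from 0.05 to 0.16, without the low-count filter (0.0641), with DESeq2 (0.079), and in 9 of 10 edgeR fits without 1 library (each but library 4; adjusted p up to 0.1177). The fit of the 15 CTRL libraries, in which 40.6% of genes passed, also called Gbp3 and Igtp, and the fit without libraries 9 and 10 (33.8% of genes) also called Igtp. Gbp5, Gbp7 and Igtp had negative differences (-0.25, -0.28 and -0.64), and Gbp3, Irgm1 and Irgm2 positive ones (0.48, 0.42 and 0.43), of which none passed. Markers of other cells differed in both 4T1 comparisons, and their part was not tested. In 4T1, CD4 and CD8 CTRL, the 6 neutrophil markers summed to 3896 to 13510, 586 to 864 and 254 to 506 CPM. The 4 fibroblast markers summed to 2188 to 34820, 441 to 3981 and 202 to 575.5 CPM. The sums of the 7 markers of macrophages and monocytes overlapped, at 691 to 3900, 430 to 1979 and 730.5 to 1338 CPM. Ly6c2 carried much of the CD8 sum, as given above. Taken singly, 4 of the 7 passed as higher and 1 as lower in 4T1 than in CD8 CTRL (median 1.425). Against CD4 CTRL all 7 were positive (median 0.79) and 0 passed. The CTRL comparisons share their control groups, so they are not independent of each other. Nor are they independent of the C269 comparisons, which use the same groups.

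**Figure D3:**
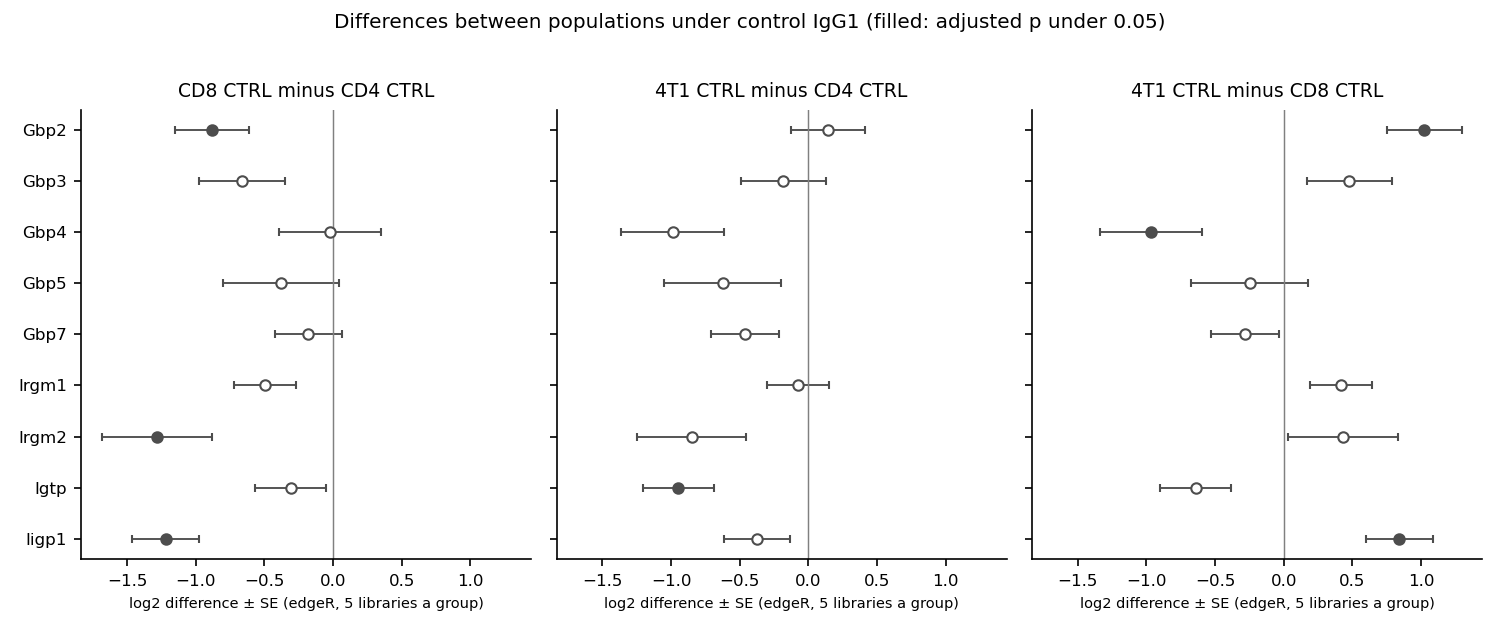
Log2 difference (x axis, with its SE) of 9 members (y axis) between the 3 CTRL groups, from edgeR's fit of 30 libraries; filled points have an adjusted p under 0.05. All 9 values are negative for CD8 minus CD4, and for 4T1 minus CD8 Gbp2 (1.02) and Gbp4 (-0.97) lie on opposite sides of 0.

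Ifng RNA ran highest in CD8 CTRL, while the summed members ran highest in CD4 CTRL. Among single members, Gbp4, Gbp5, Gbp7 and Igtp had their lowest CTRL mean in 4T1, where Ifng was lowest too. The other tested members had theirs in CD8. Interferon-gamma is released by cells, so its RNA in a fraction does not measure the exposure of that fraction, which was not tested. Ifng, the interferon-gamma gene, was at 9.84, 0, 12.99, 0 and 0 CPM in 4T1 CTRL, at 19.1, 3.84, 14.1, 12.3 and 20.4 CPM in CD4 CTRL and at 63.2, 58.0, 93.7, 135 and 81.6 CPM in CD8 CTRL. It was thus highest in the fraction with the lower Iigp1 and Gbp2 (CD8 minus CD4 2.71, SE 0.82, edgeR adjusted p = 0.0416). Ifngr1, the ligand-binding receptor chain, showed the same order of populations, at 63.0 to 146 CPM in 4T1 CTRL, 363 to 566 CPM in CD4 CTRL and 620.4 to 798 CPM in CD8 CTRL (CD8 minus CD4 0.86, SE 0.23, edgeR adjusted p = 0.0162; 4T1 minus CD4 -1.74, SE 0.23, adjusted p = 1.481e-05).

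Irf1, the transcription factor, averaged 567 ± 145 CPM in 4T1 CTRL, 830.3 ± 131 CPM in CD4 CTRL, with 867 ± 117 CPM in CD8 CTRL. The 10 members summed to 532 to 1414 CPM in 4T1 CTRL, 1223 to 1473 CPM in CD4 CTRL and 789 to 929 CPM in CD8 CTRL.

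Of the 18 genes listed for interferon receptors and signalling, 4 were higher in CD8 than in CD4 CTRL and 0 lower. These were Ifngr1, Jak1, a kinase bound to interferon receptors (0.97, SE 0.26, edgeR adjusted p = 0.0208), Ifng and Ifnar1, a chain of the type I receptor. The list's median was 0.35, against -0.50 for the 9 members and -0.01 for all genes. Between 4T1 and CD4 CTRL, 2 of 18 passed and both were lower in 4T1: Ifngr1 and Socs1, the feedback inhibitor of this pathway (-1.44, SE 0.42, edgeR adjusted p = 0.0389). Between 4T1 and CD8 CTRL, 1 was higher and 8 lower, led by Ifngr1 (-2.60, SE 0.24, edgeR adjusted p = 1.774e-08), Jak1 and Stat3, a factor of cytokine signalling beyond interferon (-1.37, SE 0.26, adjusted p = 0.0002395). Of all genes, 6.94% passed for CD8 against CD4 CTRL, 5.8% for 4T1 against CD4 CTRL and 31.9% for 4T1 against CD8 CTRL.

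**Figure D4:**
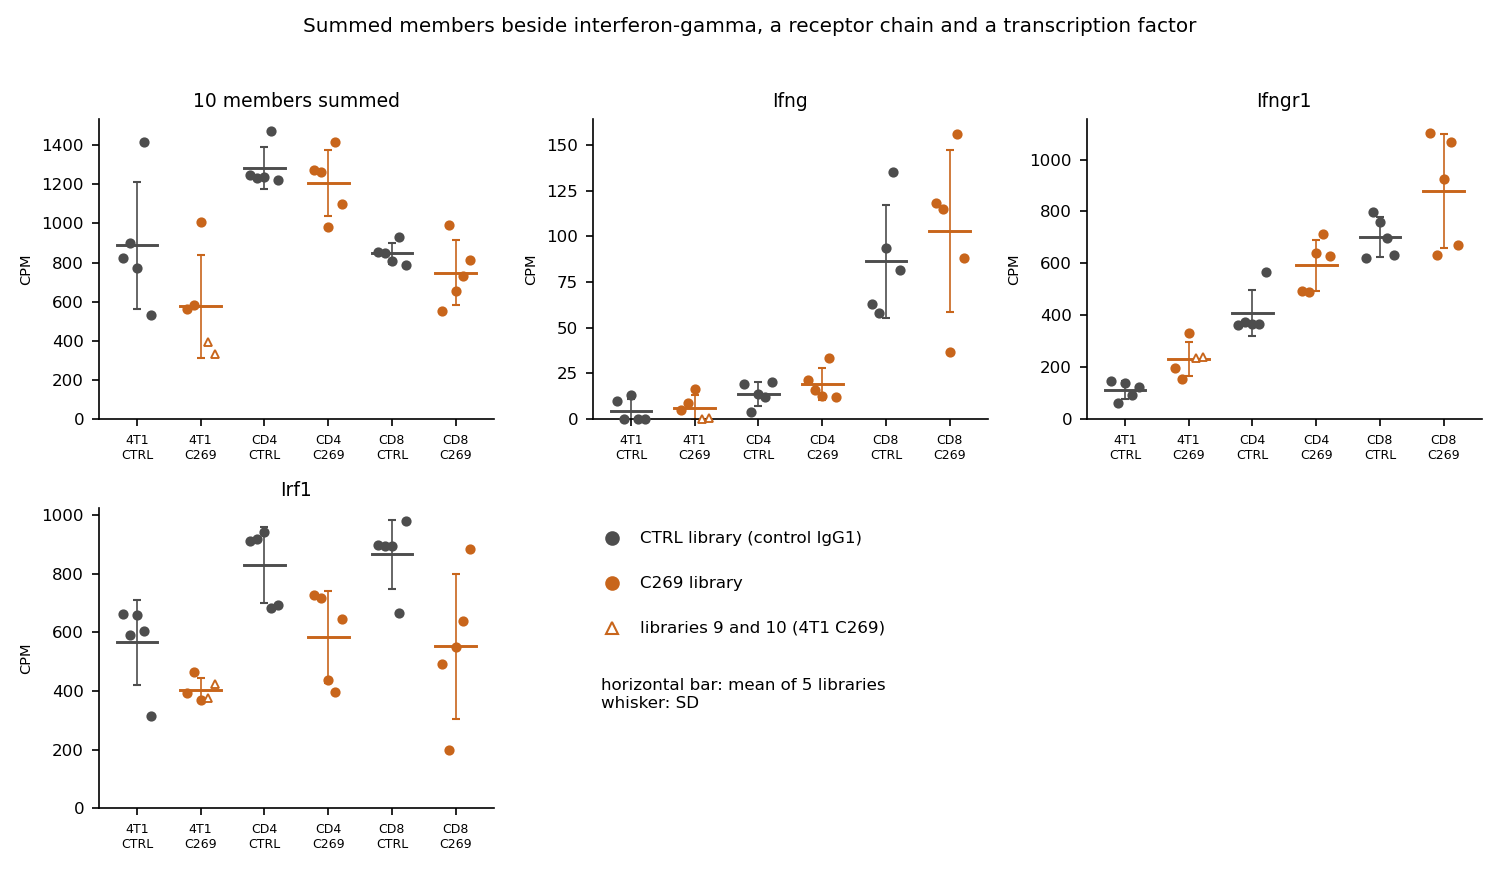
CPM (y axes) of the 10 members summed and of Ifng, Ifngr1 and Irf1 in each library of the 6 groups; points are libraries, bars the mean of 5, whiskers the SD, open triangles libraries 9 and 10. The summed members run highest in CD4 CTRL (1223 to 1473 CPM), while Ifng runs highest in the CD8 groups.

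The other lists held few passing genes between the T cell groups. The list of the wider GBP and IRG family (19 symbols listed, 15 found) also holds Mx1, Mx2 and Gvin1, which are not GBP or IRG genes. Of its 12 tested genes, 1 was lower in CD8 than CD4 CTRL. This was the IRG gene F830016B08Rik, at 12.3 ± 3.95 CPM in CD4 CTRL against 1.06 ± 1.07 CPM in CD8 CTRL (-3.43, SE 0.65, edgeR adjusted p = 0.001646). Gbp2b, a paralog of Gbp2 picked here after its values were seen, stood at 174 ± 74.2 CPM in CD4 CTRL against 87.7 ± 11.6 CPM in CD8 CTRL (-0.88, SE 0.62, adjusted p = 0.496). For 4T1 against CD4 CTRL 0 of 12 passed, with Gbp11 (-3.78, SE 1.23, edgeR adjusted p = 0.0612) and the myxovirus gene Mx2 (0.98, SE 0.49, adjusted p = 0.2423) having the smallest p. For 4T1 against CD8 CTRL 2 were higher (F830016B08Rik and Gm4951) and 1 lower (Gbp11), where 31.9% of all genes passed (17.8% as higher, 14.1% as lower). For the lists that follow, the shares of all genes that passed were 6.94% (CD8 against CD4 CTRL), 5.8% (4T1 against CD4 CTRL) and 31.9% (4T1 against CD8 CTRL).

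Of 22 other interferon-gamma targets, 0 were higher and 1 lower in CD8 than CD4 CTRL: Nos2, the inducible nitric oxide synthase of macrophages (-1.95, SE 0.52, edgeR adjusted p = 0.0174). In 4T1 against CD4 CTRL, Ciita, the switch of MHC class II genes, was higher (1.67, SE 0.48, edgeR adjusted p = 0.0347) and Nlrc5, its counterpart for class I, lower (-1.44, SE 0.32, adjusted p = 0.006174), and the other 20 did not pass. In 4T1 against CD8 CTRL, 9 were higher and 2 lower, led by Nos2 (3.44), Nlrc5 (-1.93) and Ciita (2.38). Of 12 genes of inflammasomes and pyroptosis, the process GBPs assist, Aim2, a sensor of cytosolic DNA, was higher in CD8 than CD4 CTRL (0.99, SE 0.28, edgeR adjusted p = 0.0253), and the other 11 did not pass. In 4T1 CTRL, Casp4, the caspase that senses bacterial lipopolysaccharide, was higher than in CD4 CTRL (0.89, SE 0.24, edgeR adjusted p = 0.0247), and so was Mefv (2.32, SE 0.65, adjusted p = 0.0298). Against CD8 CTRL, 4 of the 12 were higher in 4T1 and 1, Aim2, lower.

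The last list holds the autophagy conjugation machinery, which helps to place IRG and GBP proteins on membranes, and ubiquitin partners. Of its 15 genes, 0 passed for CD8 against CD4 CTRL. For 4T1 against CD4 CTRL 1 was higher, Gabarap, a ubiquitin-like membrane tag (0.64, SE 0.17, edgeR adjusted p = 0.0247). For 4T1 against CD8 CTRL 3 were higher, Gabarap among them (0.95, SE 0.17), and 2 lower, of which Becn1 had the smallest p (-0.71, SE 0.19). These counts are close to the 31.9% of all genes that passed there (17.8% as higher, 14.1% as lower).

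The second question was whether C269 changed these genes. In the 4T1 fraction 0 of 9 members passed, and so did 0 of 12875 genes (percent called 0), with 1536 genes at an unadjusted p under 0.05 (edgeR). DESeq2 called 998 genes (5.64%) and again 0 members. Of the 9 members, 8 had a negative fold change (C269 minus CTRL), with a median of -0.55 against 0.02 over all genes. Without libraries 9 and 10 the median was -0.18, and 7 of 9 were negative.

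Iigp1 had the smallest p of the members. It was at 148, 132, 131, 372 and 161 CPM in 4T1 CTRL and at 91.0, 97.2, 156, 85.5 and 62.8 CPM in 4T1 C269. Of the C269 libraries, only library 8 reached the CTRL range, and library 4 was the high CTRL value. The fold change was -0.92 (SE 0.33, edgeR adjusted p = 0.3582), and -0.64 (SE 0.34) without libraries 9 and 10. In the fit of all 30 libraries, which pools the spread with the T cell groups, Iigp1 passed (-0.86, SE 0.24, edgeR adjusted p = 0.0378), as did 596 of 14731 genes (4.05%). It passed in no other of its 16 alternatives (adjusted p up to 0.8836).

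Within 4T1 C269, the GBPs on chromosome 3 were lowest in libraries 9 and 10. Gbp3, another GBP of pathogen vacuoles, was at 77.0, 105, 58.7, 112 and 58.2 CPM in 4T1 CTRL and at 51.9, 44.7, 97.7, 20.4 and 12.6 CPM in 4T1 C269 (-0.84, SE 0.47; without libraries 9 and 10 -0.28, SE 0.28). Gbp2 was at 113, 102, 155, 51.4 and 38.8 CPM in 4T1 C269 (-0.76, SE 0.38; without them -0.28, SE 0.28). Its values overlapped those of CTRL through libraries 6 to 8. Gbp7, a GBP linked to the phagocyte oxidase, ran from 70.3 to 249 CPM in CTRL and from 53.9 to 171 CPM in C269 (-0.55, SE 0.37; -0.13 without the pair), and Gbp5 from 7.27 to 47.2 CPM and from 8.08 to 32.6 CPM (-0.51, SE 0.52; 0.01 without the pair).

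Gbp4 showed the same pattern, at 54.9, 54.5, 121, 13.5 and 16.03 CPM in 4T1 C269 (-0.56, SE 0.54; 0.04 without libraries 9 and 10). Igtp was at 70.4, 75.4, 172, 61.7 and 63.4 CPM (-0.39, SE 0.33; -0.08 without them). Irgm1 had -0.27 (SE 0.26; -0.22 without them). Irgm2 alone was positive, at 14.9, 20.7, 47.0, 39.3 and 49.8 CPM in C269 against 34.0, 20.9, 31.1, 58.7 and 13.5 CPM in CTRL (0.11, SE 0.42), and negative without them (-0.18, SE 0.47). The groups overlapped for each of the 9, while they did not for 2.66% of all genes (1.62% as lower, 1.05% as higher).

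Libraries 9 and 10 also differed in the mix of members. Irgm2 made up 9.94% and 14.95% of their summed members, against 1.66% to 7.81% in the other 28 libraries, and Irgm1 11.8% and 7.76% against 2.61% to 6.64%. Gbp4 made up 3.41% and 4.81%, against 6.05% to 24.9%, and Gbp3 5.17% and 3.77%, against 5.45% to 12.6%. Gbp2b, outside the members, was at 1.80 and 1.35 CPM there and at 104.7 CPM or more in the other 3 libraries of 4T1 C269.

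In the 4T1 fraction markers of other cells varied between libraries, some with the members and some not. In the order of libraries, the 7 macrophage and monocyte markers summed to 691, 1774, 704, 3900 and 811 CPM in CTRL and to 947, 613, 1278, 186 and 137 CPM in C269. The summed members were 822, 902, 773, 1414 and 532 CPM in CTRL and 561, 584, 1006, 395 and 333 CPM in C269. Library 4 was the highest and libraries 9 and 10 were the lowest in both sums. In C269 library 8 had the highest sums, but Ly6c2 alone gave 676 of its 1278 CPM. The 6 neutrophil markers ran from 3896 to 13510 CPM in CTRL, with library 4 at 6530 CPM, and were at 362 and 369.7 CPM in libraries 9 and 10. The 4 fibroblast markers summed to 6695, 3752, 6876, 2188 and 34820 CPM in CTRL and to 9141, 6008, 2910, 1263 and 776 CPM in C269. Library 5, the highest for fibroblasts, had the lowest summed members of CTRL (532 CPM). The 5 epithelial markers summed to 209 to 563 CPM in CTRL and to 539, 344, 1487, 5509 and 5287 CPM in C269. All listed markers of these types were detected in both groups, and their part in the result was not tested.

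In CD4 cells the median difference of the members was small. Of 9, 0 passed, where 0 of 12393 genes did (percent called 0; 697 at an unadjusted p under 0.05; DESeq2 called 17, or 0.11%, and 0 members). Fold changes ran from -0.25 (Gbp4, SE 0.16) to 0.14 (Gbp7, SE 0.15), 7 of 9 were negative and the median was -0.14. Igtp was at 249, 250.1, 149, 188.5 and 193 CPM in CD4 C269 (-0.19, SE 0.17), Iigp1 at 211, 239, 175, 253 and 247 CPM (-0.19, SE 0.15) and Gbp2 at 126, 152, 127, 187.5 and 126.5 CPM (-0.08, SE 0.14). For each of the 9 the CD4 C269 values overlapped those of CD4 CTRL, whereas 0.733% of all genes showed no overlap (0.299% as lower, 0.434% as higher). The 5 epithelial markers summed to 278.9 to 749.6 CPM in CD4 C269 (202.8 to 310.6 CPM in CTRL). Sums of the 4 fibroblast markers were 1061 to 5976 CPM (441 to 3981 CPM in CTRL). Those of the 7 macrophage and monocyte markers were 381 to 896 CPM (430 to 1979 CPM in CTRL). The part of these markers in the members' values was not tested.

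In CD8 C269 0 of 9 members passed, where 1 of 10943 genes did (0.00914%; 725 at an unadjusted p under 0.05; DESeq2 called 18, or 0.128%, and 0 members). Of the 9, 8 had negative fold changes, with a median of -0.22 against 0.01 over all genes. Gbp7 was at 174, 169, 177, 243 and 195 CPM in CD8 CTRL and at 123.5, 163, 119, 143 and 142 CPM in CD8 C269. It was the one member whose groups did not overlap, as was the case for 1.22% of all genes (0.754% as lower, 0.468% as higher), and its fold change was -0.46 (SE 0.16, edgeR adjusted p = 0.7386).

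Gbp2 was at 31.9, 62.8, 52.9, 62.2 and 57.4 CPM in CD8 C269, of which 3 values lay below the lowest CTRL library at 62.0 CPM (-0.51, SE 0.22, edgeR adjusted p = 0.7421). Irgm2 ran from 9.12 to 77.3 CPM with a median of 43.4 CPM in CD8 C269, wider than its range in CTRL on both sides (0.76, SE 0.45, edgeR adjusted p = 0.7961). Gbp5 was split, at 7.98, 33.9, 10.1, 39.0 and 45.5 CPM (-0.42, SE 0.42). Igtp (-0.02, SE 0.23), Gbp3 (-0.03, SE 0.21) and Gbp4 (-0.04, SE 0.23) had values near 0 whose sign changed when single libraries were left out, and Iigp1 (-0.25, SE 0.21) and Irgm1 (-0.22, SE 0.29) lay between. Irf2, an IRF factor, had the smallest p of the 18 signalling genes (-0.48, SE 0.19, edgeR adjusted p = 0.7401). CD8 C269 was also the shallowest group, at 2005579 to 3268974 gene counts against 2599226 to 3908523 in CD8 CTRL. Ribosomal RNA made up 2.48% to 7.95% of its counts against 3.18% to 5.08%, and 12208 to 15786 genes were detected against 15775 to 17169. Markers of other cells differed too: the 5 epithelial markers summed to 46.8 to 508.6 CPM in CD8 C269 (35.1 to 100.5 CPM in CTRL), the 4 fibroblast markers to 115 to 4170 CPM (202 to 576 CPM in CTRL) and the 7 macrophage and monocyte markers to 570.5 to 1261 CPM (731 to 1338 CPM in CTRL). The 6 neutrophil markers summed to 368 to 1987 CPM in CD8 C269 (253.8 to 505.7 CPM in CTRL), with library 29 the highest for these and for fibroblasts. All of these markers were detected in both groups, and their part in the members' values was not tested.

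**Figure D5:**
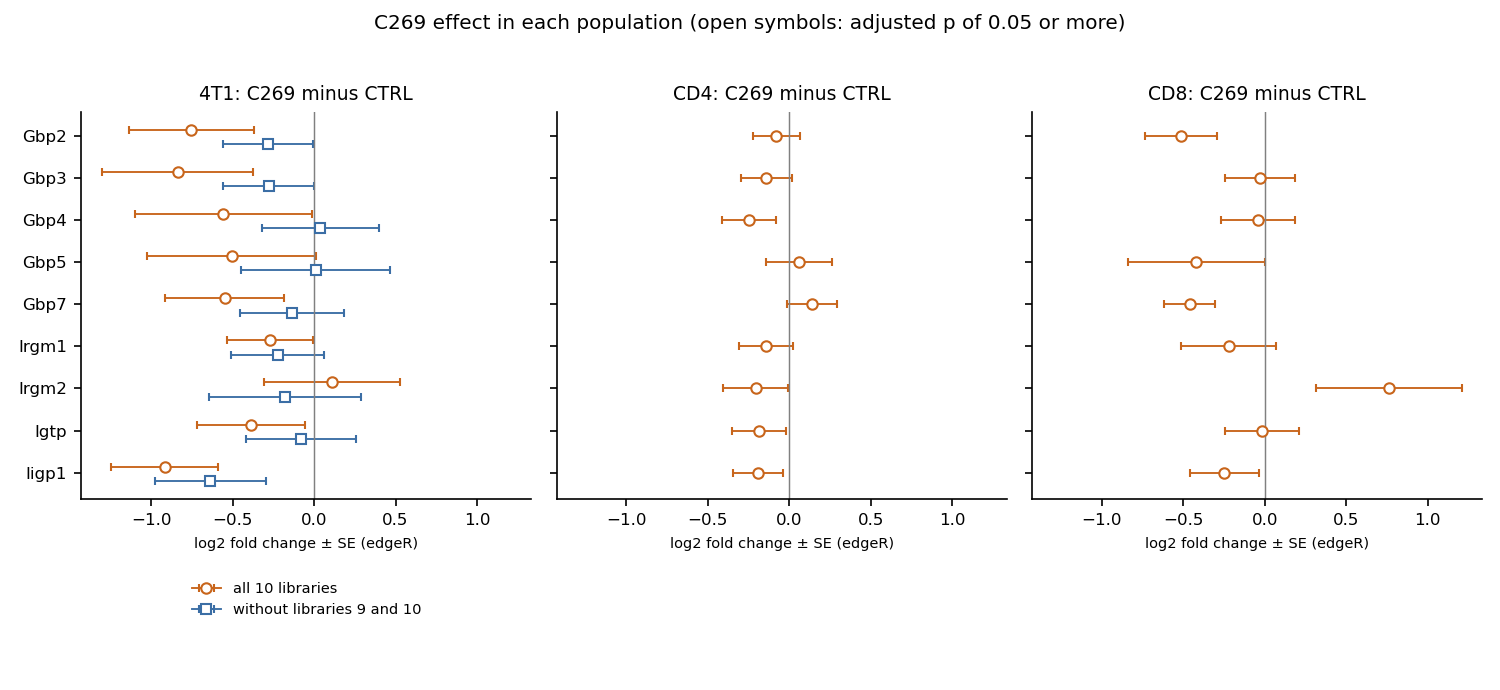
Log2 fold change of C269 against CTRL (x axis, with its SE from edgeR) of 9 members (y axis) in each population; blue squares in the 4T1 panel leave out libraries 9 and 10. All symbols are open (adjusted p of 0.05 or more). The 4T1 values move towards 0 without the pair, for Gbp3 from -0.84 to -0.28.

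The C269 effect was also compared between populations in the fit of 30 libraries, and 0 of 9 members passed in each of the 3 comparisons. The largest differences were 0.95 (SE 0.56) for Irgm2 and -0.62 (SE 0.35) for Gbp7 in CD8 minus CD4, where 0 genes passed (edgeR, 566 at an unadjusted p under 0.05; DESeq2 called 19, or 0.103%). They were -0.67 (SE 0.34) for Iigp1 and -0.63 (SE 0.35) for Gbp7 in 4T1 minus CD4, where 1 gene passed (0.00679%), and -0.73 (SE 0.44) for Gbp3 and -0.59 (SE 0.34) for Iigp1 in 4T1 minus CD8, where 1 gene passed (0.00679%). The members' median for 4T1 minus CD4 was -0.52, and -0.05 without libraries 9 and 10, and for 4T1 minus CD8 it was -0.29, and 0.06 without them.

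None of the other lists held a gene that passed for C269 in any population. In 4T1, Mx2 (-1.68, SE 0.46), not itself a GBP or IRG gene, and Gm12250 (-0.97, SE 0.35) had the smallest p of 9 tested genes in the wider family list. Of the 9, 8 were negative (median -0.88, and -0.40 with 8 of 9 negative without libraries 9 and 10). Nos2 (-1.70, SE 0.43) and Cxcl9, a T cell chemokine (-1.42, SE 0.49), led the other interferon-gamma targets there, and 15 of 22 were negative (median -0.15), but 9 of 22 without libraries 9 and 10 (median 0.12). Ifngr1 had 1.01 (SE 0.29), with all C269 libraries (154 to 331 CPM) above all CTRL libraries, and Stat2, a factor of type I signalling, at -0.74 (SE 0.28), and the signalling list had a median of -0.09 (0.20 without the pair). In the inflammasome list 8 of 12 were positive (median 0.67), with Naip5 (2.28, SE 0.74) and Pycard (2.10, SE 0.73) first. Without the pair it had 6 positive and 6 negative (median -0.01), with Naip5 at 0.67 and Pycard at 0.33. The autophagy list had 11 of 15 negative (median -0.25), and 6 of 15 without the pair (median 0.02). In CD8, Gbp8 (-0.65, SE 0.34), Cxcl9 (-1.18, SE 0.41), Gsdmd (0.23, SE 0.31) and Traf6 (0.36, SE 0.24) had the smallest p of their lists, whose medians ran from -0.14 to 0.02. In CD4, Jak2 (0.57, SE 0.16), Casp4 (0.44, SE 0.16), Psmb8 (-0.32, SE 0.16), Gm4951 (-0.41, SE 0.30) and Gabarapl2 (0.27, SE 0.19) did. Irf1 had negative values in all 3 populations, at -0.46 (SE 0.24) in 4T1, -0.52 (SE 0.20) in CD4 and -0.63 (SE 0.28) in CD8, with edgeR adjusted p from 0.4682 to 0.8652.

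In the authors' deposited table for 4T1, the members' fold changes, turned to C269 minus CTRL, ran from -0.87 (Iigp1, adjusted p = 0.1422) to 0.14 (Irgm2), and 0 members passed. The authors' deposited table for CD8 gave -0.44 for Gbp7 (adjusted p = 0.3703) and 0.57 for Irgm2 (adjusted p = 0.7654). The authors' deposited table for CD4 gave -0.23 (Gbp4) to 0.12 (Gbp7). The genes with an adjusted p under 0.05 in these 3 tables numbered 818, 13 and 12 for 4T1, CD8 and CD4.

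Within groups, most pairs of members deviated in the same direction from library to library. After each group's mean log2(CPM + 1) was subtracted, the 36 pairs of tested members had a median Pearson r of 0.55 over 30 libraries (from -0.12 to 0.87, 35 positive), and of 0.51 without libraries 9 and 10 (from 0.11 to 0.78, all 36 positive). Irgm2 was least like the others (median r 0.27 over its 8 pairs), but not without those libraries (0.54), and Gbp2 most (0.67), whereas without those libraries Igtp came first (0.60), then Gbp7 (0.57) and Gbp2 (0.55). The genes most like the mean of the members' standardized values were Psme1 (r = 0.85), a subunit of the interferon-induced proteasome activator, Evi2a (0.84), Psmb9 (0.83), an interferon-induced proteasome subunit, Ppp1r18 (0.81), Evl (0.81) and Fam234b (0.81), of 14722 ranked. Their Spearman rho ran from 0.53 for Evl to 0.78 for Psmb9, and without libraries 9 and 10 their r ran from 0.70 for Evl to 0.79 for Psme1. By the same measure Ifng was at 0.38 (rank 2089; 0.14 without libraries 9 and 10), Irf1 at 0.03 and Ifngr1 at -0.15. Without subtraction of group means, a measure that also takes in the differences between populations, Tnfrsf19 (r = 0.84), Smg6 (0.84), Samhd1 (0.82), Znrf1 (0.81), Maf (0.80) and Nt5e (0.80) came first, and Ifng was at 0.11. These libraries differ in cell mixture and depth, whose part was not tested, so the r values are given as a description with no p.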

How the data were processed

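RNA-seq of 30 libraries was analysed from 3 deposited tables, 1 per population. RNA was extracted with a Lexogen kit and sequenced on a NextSeq 500, per the labels' protocols. Read counts per gene were made with featureCounts after FastQC, with mm9 named as the build, per the submitters' processing notes. The aligner, tool versions and strand setting: not given in the sources used here. Gene starts in the tables equalled those of GENCODE M21 (GRCm38) for 99.6% of 55141 shared identifiers, so GRCm38 positions are printed. The authors also deposited log2 fold changes, a mean signal (counts over size factors), a score (the Wald statistic) and p-values with adjusted p-values from DESeq2, per the file headers. Each library column was tied to its group through the condition number in the titles: each deposited condition column was the sum of exactly 1 of 252 possible sets of 5 library columns. The columns do not show the replicate letter of the titles.

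From the counts, 7 ribosomal RNA features (0.579% to 7.95% of a library) were left out, and CPM was taken over the other 55401 genes. edgeR 4.0.16 (filterByExpr, TMM, quasi-likelihood test, Benjamini-Hochberg over all genes tested, threshold 0.05) compared C269 with CTRL within each population over 10 libraries. A fit of all 30 libraries compared the CTRL groups and the C269 effects. DESeq2 1.42.0, RLE factors, no filter on low counts and leaving out each library in turn were alternatives. Leaving out libraries 9 and 10, and a fit of the 15 CTRL libraries, were added after the data were seen. The scripts were tested on simulated counts. Likeness is the Pearson r of log2(CPM + 1) with the mean of the members' standardized values. Named genes were all 10 members, and per list and comparison up to 3 passing genes by smallest p, or up to 2 where none passed. They also include the 6 most like genes, and always Ifng, Ifngr1, Irf1, Cd3e, Cd4, Cd8a, Ptprc, Krt8 and Epcam; 1 gene of the signalling list is not reported here. The members and the lists were chosen with earlier results of these data known.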

Additional observations from a re-analysis of the deposited data

Results flagged for a closer look

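In 8 of 58 combinations of a gene and a group, 1 library lay so far from the other 4 that its gap to the nearest one exceeded 0.71 of the group's range, the 95% limit of Dixon's test; chance alone marks about 1 in 20 groups. For 3 of the 8, all Gbp6, the other 4 libraries were at 0, so the gap equals the range by construction and they do not count towards that rate. In CD4 CTRL this was library 14 for 3 members: Iigp1 at 369.8 CPM (the next library at 240.6), Igtp at 188.5 CPM (next 236.1) and Gbp5 at 34.76 CPM (next 50.82). Library 14 was thus high for 1 member and low for the other 2. In 4T1 CTRL library 4 stood out for Iigp1 at 371.8 CPM (next 161.4), and in 4T1 C269 library 8 for Igtp at 172.1 CPM (next 75.42). Gbp6 was detected in a single library of 4T1 CTRL (library 4, 1.254 CPM), of 4T1 C269 (library 10, 0.1932 CPM) and of CD8 CTRL (library 22, 0.5658 CPM), on 5 reads or fewer each.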

How the results depend on the processing

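Depth and replication set the limits: p-values reflect the spread of 5 libraries a group, and genes at few reads, Gbp6 among them, did not pass the low-count filter. No paired analysis was possible because the count columns carry no replicate letter shared between libraries of different groups. Over the members' single values for C269 within a population, between CTRL groups and for the 6 differences in C269 effect printed above, 870 alternatives kept direction and side of the threshold, 39 lost a call, 10 gained one and 26 changed sign.

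For C269 in 4T1, the members called were 0 in the 10-library fit and 1 in the fit of 30 libraries, and the genes called were 998 with DESeq2, 119 with DESeq2 without libraries 9 and 10 and 596 in the fit of 30 libraries. In CD4 the genes called were 83 without the low-count filter, 17 with DESeq2 and 0 to 10 with 1 library left out, and in CD8 they were 162, 18 and 0 to 1, and 0 in the fit of 30 libraries. For the effect in 4T1 minus CD4, 6 genes passed without the filter, 75 with DESeq2, 0 without libraries 9 and 10 and 0 to 12 with 1 library left out. For 4T1 minus CD8 these were 58 without the filter, 617 with DESeq2 and 1 to 216 with 1 library left out, and for CD8 minus CD4 19 with DESeq2 and 0 to 1. Members called for 4T1 against CD4 CTRL were 2 without libraries 9 and 10, 2 in the fit of the 15 CTRL libraries and 0 to 2 with 1 library left out. The genes called there were 1697 with DESeq2, 1570 without libraries 9 and 10, 1679 in the fit of the 15 CTRL libraries and 426 to 927 with 1 library left out. For 4T1 against CD8 CTRL, 5 members passed in the fit of the 15 CTRL libraries (40.6% of genes) and 4 without libraries 9 and 10 (33.8%). With RLE factors, DESeq2 or no filter 2 members passed, where 4726, 5106 and 3983 genes did. With 1 library left out 2 to 3 members passed, where 3764 to 4700 genes did. For CD8 against CD4 CTRL, 4 members passed without libraries 9 and 10 (8.82% of genes) and 4 in the fit of the 15 CTRL libraries (12.6%). Without the filter 1 member passed, where 791 genes did, and 1 to 2 members passed with 1 library left out. The genes called were 1582 with DESeq2, 1658 in the fit of the 15 CTRL libraries and 565 to 873 with 1 library left out. The cause of these changes was not tested.

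Among these values, the following changed sign. Without libraries 9 and 10 the C269 value in 4T1 was 0.039 for Gbp4 (0.023 with DESeq2), 0.0085 for Gbp5 and -0.18 for Irgm2 (-0.19 with DESeq2). Irgm1 in 4T1 against CD4 CTRL was 0.015 with RLE factors and 0.017 with DESeq2. With 1 library left out, the C269 value ran from -0.078 to 0.40 for Irgm2 in 4T1, from -0.065 to 0.14 for Gbp5 in CD4, and in CD8 from -0.12 to 0.064 for Gbp3, from -0.26 to 0.11 for Gbp4 and from -0.11 to 0.14 for Igtp. Gbp4 in CD8 against CD4 CTRL ran from -0.076 to 0.027. For the C269 effects compared between populations, those 6 kept their sign, while the positive members went from 1 of 9 to 5 (4T1 minus CD8) and 3 (4T1 minus CD4) without libraries 9 and 10, and from 4 to 6 (CD8 minus CD4) without library 26. Of the 6 genes most like the members within groups, 1 was also among the 6 first without libraries 9 and 10.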
